A study of Homo sapiens with 9 samples.

Results

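TNF, LTA and LTB encode 3 related cytokines and lie side by side on chromosome 6, in the gene-dense middle of the major histocompatibility complex. Their surroundings were examined in the human leukaemic T cell line Jurkat (clone E6-1) by FAIRE-seq, which enriches DNA that is free of nucleosomes and hence accessible. The locus was defined as the 3 gene bodies together with 50 kb on either side of each start site, chr6:31489831-31600299 on GRCh37, which spans 110 kb. Overlapping or touching peaks of 4 deposited lists were joined into regions, and 16 of the 40703 regions on the autosomes, X and Y lay in this locus. They are numbered here from 1 to 16 along the chromosome.

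The 9 samples of the study were 8 FAIRE libraries and a total input, 1 library per state, of which 4 were used and 5 were not analysed here. All cells were Jurkat, and all were grown with DMSO (the vehicle) or with 15 μM rottlerin for 1 h beforehand, a compound used to inhibit protein kinase C. By their labels, the 4 lists come from non-stimulated cells after DMSO (NS DMSO) or rottlerin (NS rottlerin), and from cells after stimulus withdrawal (SW DMSO and SW rottlerin). SW cells were activated for 4 h with PMA and a calcium ionophore, washed, and left for 1 day without stimulus. These labels and the paper's methods differ, because the methods describe peak calling on DMSO samples and the labels place a pair of the lists under rottlerin. By those methods, the lists labelled NS rottlerin and SW rottlerin may instead belong to DMSO-treated cells in the stimulated (ST) and re-stimulated (RS) states, and the total number of joined regions is the one described for the DMSO samples. Which cells these lists came from was not settled. Each list is therefore called by its label, and no difference between lists is read as an effect of rest or of rottlerin. The methods also state a shorter stimulation than the labels do.

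With 1 library per state there is no spread between replicates, so no difference between lists could be tested and no p-value is given. Read depth is unknown from a peak list, and a region without a peak is one that was not called at that library's depth. The lists held 18977 peaks for NS DMSO, 20132 for SW DMSO, 23835 for NS rottlerin and 30409 for SW rottlerin, covering 6.69, 7.12, 8.51 and 11.5 Mb. Their median fold enrichment over the total input, the value in column 7 of each list, was alike at 4.03 to 4.08. The cell type was checked at gene starts. All 6 T cell genes fixed for this purpose (CD3E, CD3D, CD3G, CD247, LCK and ZAP70) had a region within 1 kb of their start. By list, a peak was called there for 4 of the 6 in NS DMSO, 5 in SW DMSO, 4 in NS rottlerin and 5 in SW rottlerin. Of all 20163 protein-coding genes, 44.9% had a region there, and 34.2, 35.4, 38.5 and 42.5% had a peak in these lists. None of 3 genes of other cell types (CD14, ALB and INS) had one.

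Tumour necrosis factor, the product of TNF, is an inflammatory cytokine that T cells make on activation. It binds receptors encoded by TNFRSF1A and TNFRSF1B, which act through adaptor proteins and kinases to release NFkB transcription factors into the nucleus. Lymphotoxin-α, encoded by LTA, is secreted or is held at the cell surface in a complex with lymphotoxin-β, the product of LTB, and this complex engages the receptor encoded by LTBR in the formation of lymphoid organs. Stimulation of a T cell activates NFAT, AP1 and NFkB factors, and TNF is a classical target of several of them. The study followed TNF as a gene induced by PMA and ionophore, and asked whether accessible chromatin near such genes outlasts the stimulus. By FAIRE with PCR, the study reported that a region near LTA stayed more accessible days after the stimulus was withdrawn. It also reported greater accessibility of the TNF promoter on re-stimulation than on first stimulation. These PCR results were not compared with the regions below.

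Sequences of the regions that the results below turn on are given first, from the plus strand of GRCh37. The first is the stretch of region 8, before LTA, that lies in each of its 3 peaks (chr6:31536416-31536689). The second is the part of region 10 that precedes the TNF start site (chr6:31543117-31543341), the only region to reach the start of a member. The third is the stretch of region 5, beyond NFKBIL1, common to its 3 peaks (chr6:31527756-31527926). Capitals mark a match to one of the 9 motifs described further on, which are NFkB in region 8, then EGR and NFAT in region 10, and region 5 holds no match in this stretch.
Region 8: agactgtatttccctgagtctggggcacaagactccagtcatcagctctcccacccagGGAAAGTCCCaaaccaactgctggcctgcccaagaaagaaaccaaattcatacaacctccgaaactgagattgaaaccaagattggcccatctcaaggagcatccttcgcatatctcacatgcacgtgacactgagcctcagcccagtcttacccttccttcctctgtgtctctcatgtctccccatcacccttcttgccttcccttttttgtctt
Region 10: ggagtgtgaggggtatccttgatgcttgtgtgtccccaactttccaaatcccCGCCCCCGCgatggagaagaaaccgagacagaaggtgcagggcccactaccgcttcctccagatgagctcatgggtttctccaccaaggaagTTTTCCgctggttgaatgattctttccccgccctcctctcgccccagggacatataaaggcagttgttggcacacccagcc
Region 5: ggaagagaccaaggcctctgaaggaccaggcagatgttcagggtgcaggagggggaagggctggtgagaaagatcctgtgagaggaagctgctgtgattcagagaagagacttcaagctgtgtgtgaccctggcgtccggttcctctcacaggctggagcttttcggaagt

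The NS DMSO list had a peak in 3 of the 16 regions of the locus (18.8%, against 46.5% of all regions) and the SW DMSO list in 5 (31.2% against 49.3%). The NS rottlerin list had one in 9 (56.2% against 58.4%, near the share over all regions) and the SW rottlerin list in 14 (87.5% against 74.5%). The 3 NS DMSO peaks lay at the starts of neighbouring genes (DDX39B, NFKBIL1 with ATP6V1G2, and PRRC2A), and none lay nearer to a member than region 2. Between its peaks in regions 2 and 16 the NS DMSO list was empty for 72.2 kb, which held LTA, TNF and LTB and all 13 other regions. The longest stretch of the locus without a peak, between neighbouring peaks of the same list, was 51 kb for SW DMSO, 24.1 kb for NS rottlerin and 21 kb for SW rottlerin. In the SW DMSO list it began just after region 8 and so covered all 3 members too.

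**Figure D1:**
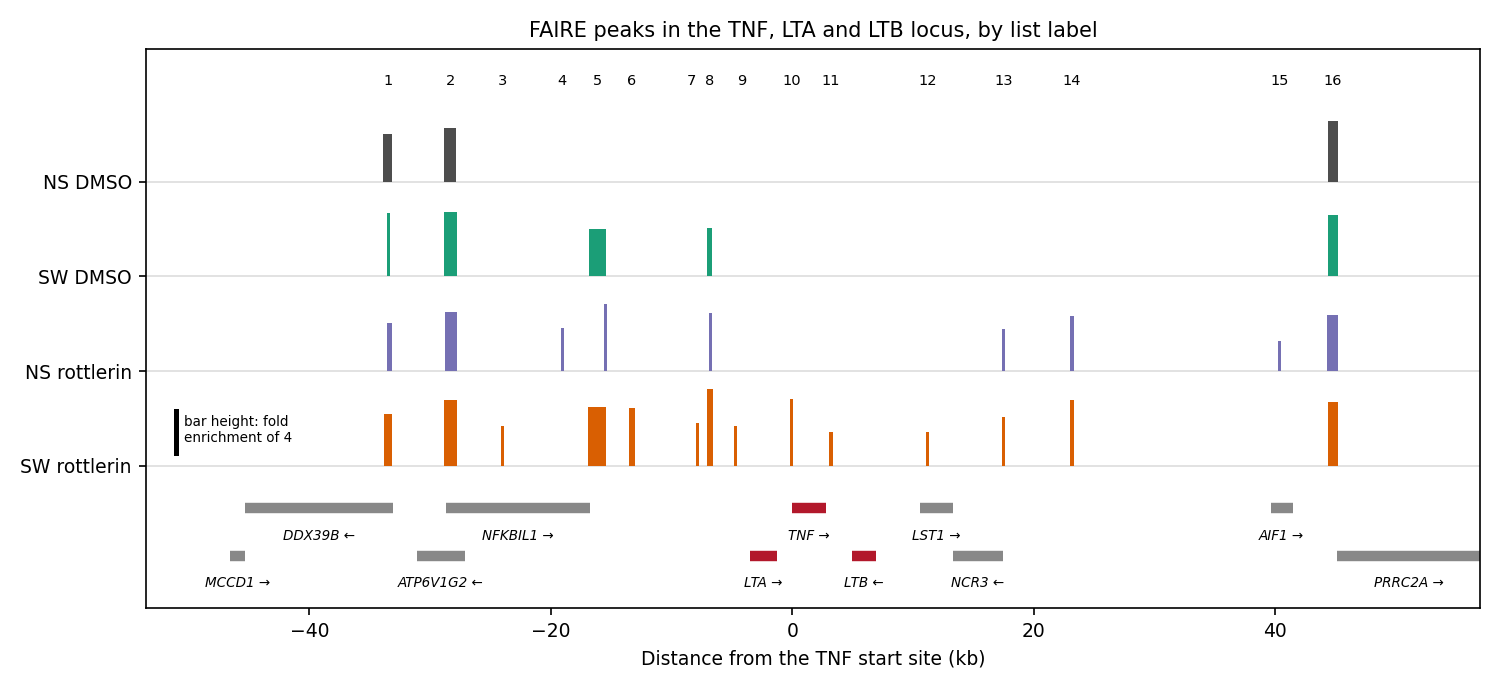
Peaks of the 4 lists along the locus, by distance from the TNF start site in kb (horizontal axis). Each bar is a peak, its height the fold enrichment over the total input (scale bar: 4), its width the length of the peak, with those under 0.25 kb drawn at 0.25 kb. Numbers above are the regions, and boxes below are protein-coding genes with an arrow for their strand, members in red. The NS DMSO list has bars only in regions 1, 2 and 16, and the SW rottlerin list alone has one at the TNF start (region 10).

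Of the 16 regions, 13 had no NS DMSO peak (81.2%, 95% Wilson interval 57.0–93.4, counting error alone), against 53.5% of all regions. The interval takes the regions as independent, although they are neighbours in the same locus, so it does not serve as a test. Without the SW rottlerin list, 6 of 9 regions had no NS DMSO peak (66.7%), against 43.3% of all regions. A peak in all 4 lists was present in 3 regions (all regions, 26.6%), and a peak in every list but NS DMSO in 2, regions 5 and 8 (all regions, 7.08%). The SW rottlerin list alone held 7 regions, numbers 3, 6, 7, 9, 10, 11 and 12, where the share over all regions was 18.2%. The NS rottlerin list alone held regions 4 and 15 (all regions, 8.42%), and both rottlerin lists but no other held regions 13 and 14 (all regions, 8.44%). No region had a peak in the NS DMSO list alone, which 7.83% of all regions did. With 16 regions this count of 0 allows a share of up to 19.4% by the Wilson interval, under the same limit. No region had a peak in the SW DMSO list alone either (all regions, 4.32%). The SW rottlerin list is the longest of the 4 and NS DMSO the shortest. When each list was reduced to its 18977 peaks of highest score (10 times the −log10 of the q-value), 10 regions remained, of which 7 were without an NS DMSO peak, against 41.5% of all regions in such lists. The lists then had peaks in 3, 5, 7 and 9 of them, in the order given above.

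Region 8 (chr6:31536274-31536733, 460 bp) lay 3.33 kb before the start of LTA and 6.84 kb before that of TNF. Like regions 6, 7 and 9, it lay inside a long non-coding RNA gene (ENSG00000289406) that runs from 31528021 to 31540477. Its fold enrichment was 4.08 in the SW DMSO list, 4.88 in the NS rottlerin list and 6.45 in the SW rottlerin list, and the NS DMSO list had no peak nearer than 20781 bp. The last value was the highest of any peak in the locus. Within the respective lists these peaks stood at or above 52.1%, 75.1% and 95% of all peaks, and their scores were 64, 96 and 181. The SW rottlerin value was 1.58 times that of SW DMSO. A ratio past 1.5 in either direction was found in 4.10% of the 17128 regions shared by these lists and in 1 of the 5 shared in the locus. Divided by the median ratio over all shared regions (1.08), it fell to 1.46, within 1.5. Against NS rottlerin the ratio was 1.32, and that of NS rottlerin to SW DMSO was 1.20.

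Region 5 (chr6:31526438-31528000, 1563 bp) began in the 3′ end of NFKBIL1, whose product resembles the inhibitors of NFkB, and ran on into intergenic sequence 12.6 kb before LTA and 16.1 kb before TNF. Its fold enrichment was 4.01 in the SW DMSO list, 5.70 in NS rottlerin and 4.96 in SW rottlerin, and it had no NS DMSO peak. Here the order of the lists was not that of region 8, since NS rottlerin was highest. The peaks also differed in extent. They measured 1466 bp in SW DMSO and 1500 bp in SW rottlerin, but 245 bp in NS rottlerin, at the far end of the region, and the printed 171 bp are shared by all of them.

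Region 10 (chr6:31543117-31543393, 277 bp) covered the start site of TNF at position 31543342. It had a peak in the SW rottlerin list only, with a fold enrichment of 5.66 and a score of 132, at or above 88.3% of that list's peaks by fold enrichment. Of its length, 52 bp lay in the transcribed leader of TNF and the rest before the gene. The next peak to the TNF start was 27.8 kb away in the NS DMSO list and 6.65 kb away in both SW DMSO and NS rottlerin, where it was that of region 8. Region 11 (chr6:31546357-31546695) followed the end of TNF, 3.18 kb past its start, and was a weak peak of the SW rottlerin list (2.87).

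No region lay within 1 kb of the start of LTA or of LTB. For LTA, on the plus strand with its start at 31539831, the nearest peak was 24.3 kb away in NS DMSO, 3.14 kb in both SW DMSO and NS rottlerin, and 1.08 kb in SW rottlerin. That last peak was region 9 (chr6:31538594-31538754), with a fold enrichment of 3.38. The SW rottlerin list also had a peak in regions 6 and 7, 9.79 and 4.34 kb before LTA, with 4.92 and 3.63. For LTB, on the minus strand with its start at 31550299, the nearest peak was 34.8 kb away in NS DMSO, 13.6 kb in SW DMSO, 10.4 kb in NS rottlerin and 3.60 kb in SW rottlerin. The last of these was region 11, between TNF and LTB.

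**Figure D2:**
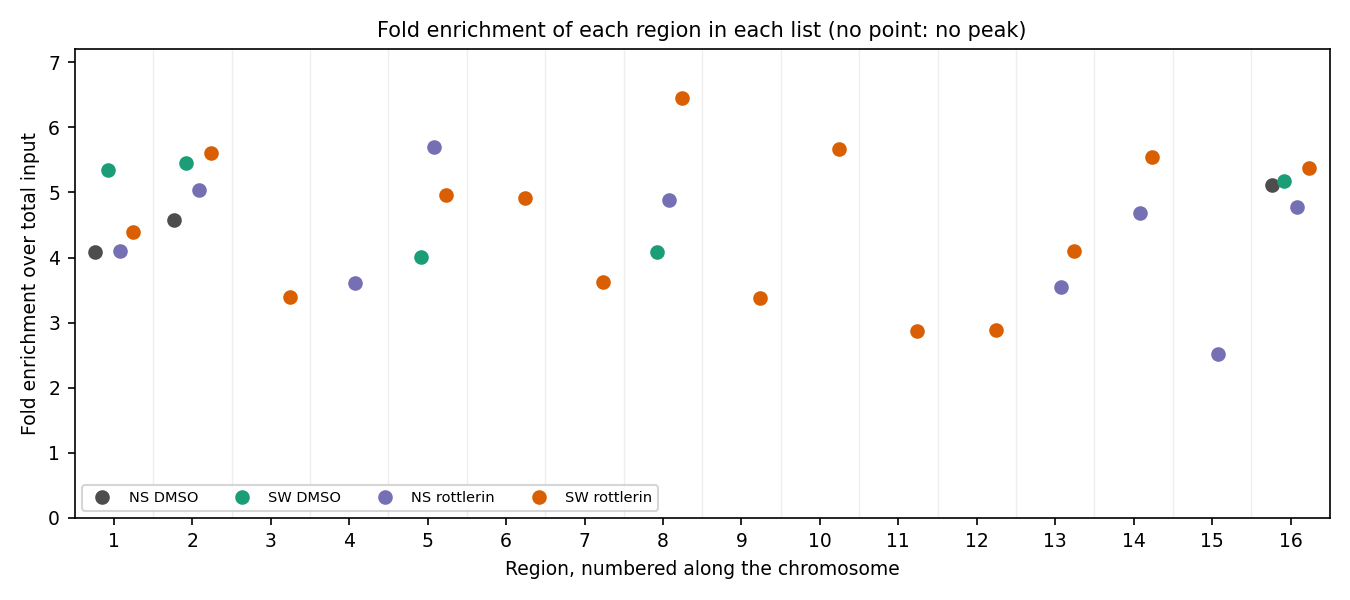
Fold enrichment over the total input (vertical axis, column 7 of each list) for the 16 regions (horizontal axis), 1 point per list with a peak and no point where none was called. Regions 1, 2 and 16 have points from all 4 lists between 4.08 and 5.60, and the highest point is region 8 in the SW rottlerin list at 6.45.

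The regions of the neighbouring genes fell into those called in every list and those called in few. Region 1 (chr6:31509466-31510220) lay at the start of DDX39B, an RNA helicase gene, with a fold enrichment of 4.08 in NS DMSO, 5.34 in SW DMSO, 4.10 in NS rottlerin and 4.39 in SW rottlerin. Region 2 (chr6:31514467-31515568), over the start of NFKBIL1 and towards that of ATP6V1G2 (a subunit of the vacuolar proton pump), had 4.58, 5.45, 5.03 and 5.60 in the same order. Region 16 (chr6:31587675-31588553), over the start of PRRC2A, an RNA-binding protein gene, had 5.11, 5.17, 4.77 and 5.37. None of these 3 regions differed by more than 1.5-fold from NS DMSO in any list. Over all regions shared with NS DMSO, 3.85% did so in SW DMSO, 4.57% in NS rottlerin and 6.04% in SW rottlerin. The largest ratio to NS DMSO was that of region 1 in SW DMSO, 1.31. Among the other pairs of lists, 0 of 5 shared regions of the locus passed 1.5-fold between NS rottlerin and SW DMSO (all regions, 4.48%) and 0 of 7 between SW rottlerin and NS rottlerin (all regions, 3.59%).

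On the far side of LTB, region 13 (chr6:31560726-31560941) covered the start of NCR3, which encodes an activating receptor of natural killer cells, with 3.55 in NS rottlerin and 4.10 in SW rottlerin. Region 14 (chr6:31566386-31566647) lay 5.73 kb before the same start, with 4.68 and 5.55. In both regions the DMSO lists had no peak. Region 12 (chr6:31554439-31554609) lay in the leader of LST1, a gene of leukocytes, with 2.89 in SW rottlerin. Region 15 (chr6:31583602-31583773), in an exon of AIF1, a gene best known from macrophages, had 2.51 in NS rottlerin, at or above only 0.386% of that list's peaks. Regions 3 and 4 lay in an intron of NFKBIL1, with 3.40 in SW rottlerin and 3.61 in NS rottlerin. Of these 6 regions, numbers 4, 13 and 14 were still called in lists of equal length, and numbers 3, 12 and 15 were not, nor were 7, 9 and 11 nearer to the members. Regions 5, 6, 8 and 10 were called in such lists.

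The base composition of the regions was measured as well. The 13 regions without an NS DMSO peak had a median GC content of 56.7%, against 44.8% over all such regions, and a median length of 216 bp against 248 bp. The 3 regions called in all lists had a median of 55.0% against 56.7% over all regions of that kind. Region 8 was the lowest in the locus with 44.3% and 3 CpG dinucleotides, whereas region 16 had 58.6% and 68 of them, region 1 had 40 and region 10 had 9.

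Each member's own window, 50 kb on either side of its start, contained all 16 regions, since LTA, TNF and LTB are close neighbours. The median protein-coding gene had 2 regions in such a window and 1 without an NS DMSO peak. Of 20163 protein-coding genes, 11 (0.0546%) had at least 16 regions of any kind. The number without an NS DMSO peak cannot exceed the number of regions in a window. At least 13 regions without an NS DMSO peak were found for 5 of the 20163 genes (0.0248%). These were TNF, LTA, LTB and LST1 with 13 and NCR3 with 14. These 5 windows overlap. Those of TNF, LTA, LTB and LST1 hold the same 16 regions, and that of NCR3 holds 15 of them and 1 outside the locus, so the 5 genes are not independent cases. With lists of equal length, the TNF window had 7 such regions, and 14 genes (0.0694%) had at least as many. The 5 genes whose share of regions in each list was nearest to that of the locus (18.8, 31.2, 56.2 and 87.5% in NS DMSO, SW DMSO, NS rottlerin and SW rottlerin) were PXYLP1, GARIN3, SH2D7, TBC1D2B and RREB1. They were sought among 249 genes elsewhere with at least 10 regions, by Euclidean distance over the 4 shares. PXYLP1 was nearest, with 10 regions and shares of 20, 30, 50 and 80% (distance 0.0992), and RREB1 was the last with 0.190. SH2D7 and TBC1D2B have the same 11 regions in their windows.

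**Figure D3:**
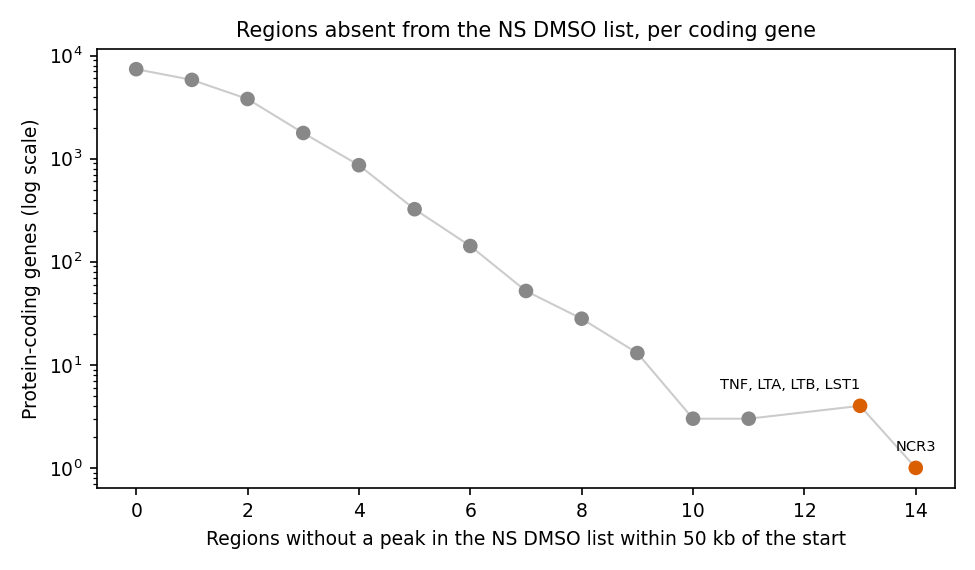
Protein-coding genes (vertical axis, log scale) by the number of regions without an NS DMSO peak within 50 kb of their start (horizontal axis). The points at 13 (TNF, LTA, LTB and LST1) and 14 (NCR3), in orange, come from overlapping windows on chromosome 6, and 7368 genes stand at 0.

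The wider family was taken from a list of 18 ligand genes of the TNF superfamily, members included. A region without an NS DMSO peak lay within 50 kb of the start in 14 of 18, against 63.5% of all protein-coding genes. TNF, LTA and LTB are among these 14 and share the same regions, so they are not independent cases. TNFSF12 and TNFSF13 are also among them and had equal counts in every list. A region within 1 kb of the start was present in 9 of 18 (all genes, 44.9%), and in 6 of 18 no such region had an NS DMSO peak (all genes, 10.7%). These 6 were TNF, CD40LG, FASLG, TNFSF8, TNFSF10 and TNFSF14. The starts of TNF, TNFSF10 (encoding TRAIL) and TNFSF14 (encoding LIGHT, a ligand of the lymphotoxin-β receptor) had a peak in SW rottlerin alone. Those of CD40LG, which gives help to B cells, and FASLG, a death ligand, had one in both SW DMSO and SW rottlerin, and TNFSF8 had one in every list but NS DMSO. TNFSF4, TNFSF9 and EDA had an NS DMSO peak at their start. Per list, a peak was found at the start of 3 of the 18 ligand genes in NS DMSO (all genes, 34.2%), 5 in SW DMSO (35.4%), 2 in NS rottlerin (38.5%) and 8 in SW rottlerin (42.5%). In number of regions within 50 kb, the members (16) stood beside CD40LG with 17 and FASLG with 16, but these had 8 regions each with an NS DMSO peak where the locus had 3. TNFSF14 had 10 regions, of which 9 were without an NS DMSO peak, TNFSF8 had 9 with 8, and CD70 had 9 with 7. No region was found near TNFSF18.

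**Figure D4:**
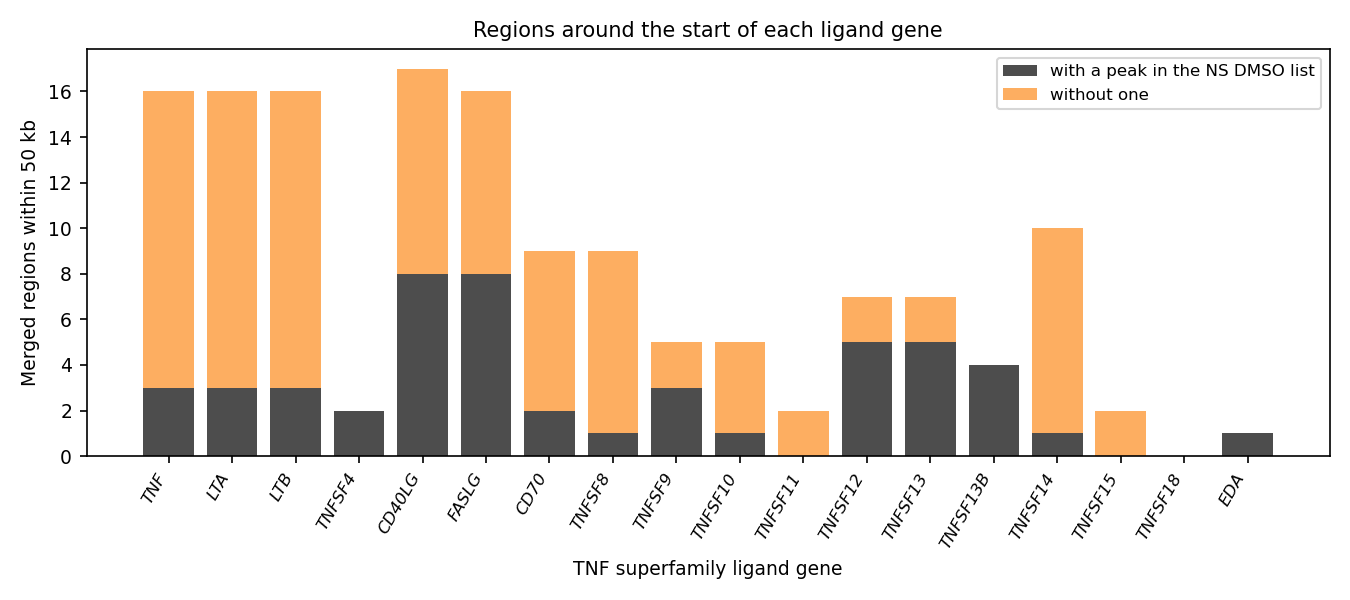
Number of merged regions within 50 kb of the start (vertical axis) for 18 ligand genes of the TNF superfamily (horizontal axis), split into regions with a peak in the NS DMSO list (dark) and without one (orange). TNF, LTA and LTB share their 16 regions, 13 of them without an NS DMSO peak, and CD40LG and FASLG have 9 and 8 without one.

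The receptors and the genes downstream were counted in the same way, and the shares over all genes again were 63.5% within 50 kb, 44.9% at the start and 10.7% at the start with no NS DMSO peak. All 4 receptor genes (TNFRSF1A, TNFRSF1B, LTBR and TNFRSF14) had a region without an NS DMSO peak within 50 kb, but only TNFRSF1A, the main receptor of TNF, had a region at its start, in the SW rottlerin list. Of 11 genes of signalling below these receptors, 9 had such a region within 50 kb and 6 had a region at the start. At 4 of these starts no NS DMSO peak was called. They belong to TRADD and TRAF2, both adaptors in TNF receptor signalling, to BIRC3, a ubiquitin ligase, and to IKBKB, the kinase that marks NFkB inhibitors for decay. BIRC2 and MAP3K14 had a peak at the start in all 4 lists. All 9 genes of NFkB subunits and their inhibitors had a region without an NS DMSO peak within 50 kb, and 8 had a region at the start. No NS DMSO peak was called at 5 of these, namely the subunit genes NFKB2, REL and RELA and the inhibitor genes NFKBIA and NFKBIE. RELB, NFKBIB and TNFAIP3 had a peak at the start in every list. Only NFKB1 of this group had no region there. Windows of genes that lie close together can hold the same regions, so the genes counted here need not be independent cases.

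Sequence motifs were sought as exact letters on both strands in the central 300 bp of each region. For a region shorter than 300 bp, this window ran into the sequence on either side of it. The 9 motifs searched were those of AP1 (letters TGACTCA), the cyclic AMP response element CRE (letters TGACGTCA), NFAT (letters GGAAAA) and NFkB (its degenerate consensus). To these were added ETS (letters CCGGAAG, with the variant form CAGGAAG) and RUNX (letters TGTGGT). The motifs of GATA (letters AGATAA, with the variant form TGATAA), EGR (letters GCGNGGGCG) and bHLH factors (letters CACCTG) completed the list. In the regions of the locus, no matches of different motifs overlapped. The NFkB motif was found in regions 8 and 12, that is in 2 of 16, where 7.28% of all regions held it. In region 8 it was the only match, 6868 bp before the TNF start and from position 59 of the printed stretch. The EGR motif was found in region 10 alone (all regions, 3.89%), 173 bp before the TNF start. NFAT matched 6 of the 16 regions (all regions, 29.3%), and the match in region 10 lay 81 bp before the TNF start. The AP1 and CRE motifs had no match in the central 300 bp of any of the 16 regions, where 13.2% and 0.985% of all regions held them. ETS matched 4 regions (all regions, 24.0%), RUNX 5 (32.8%), GATA 3 (31.5%) and bHLH 3 (21.4%). The ETS match counted for region 3 lay past the end of that region. The NFAT match of region 9 and the GATA match of region 15 crossed the edge of theirs. A match is a run of letters and no evidence that a factor is bound, and the absence of one says only that these letters were not in the window.

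The result for AP1 and NFkB depended on the window searched. Over whole regions, region 5 held 1 AP1, 3 NFkB, 3 RUNX, 2 NFAT, 2 GATA and 2 bHLH matches, none of them in its central 300 bp. Its NFkB matches starting at 31527446 and 31527447 overlap and are not separate sites. With whole regions searched, those holding AP1 numbered 1 (all regions, 16.5%) and those holding NFkB 4, numbers 5, 8, 12 and 16 (all regions, 9.72%). Those holding ETS numbered 3 (all regions, 30.3%).

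**Figure D5:**
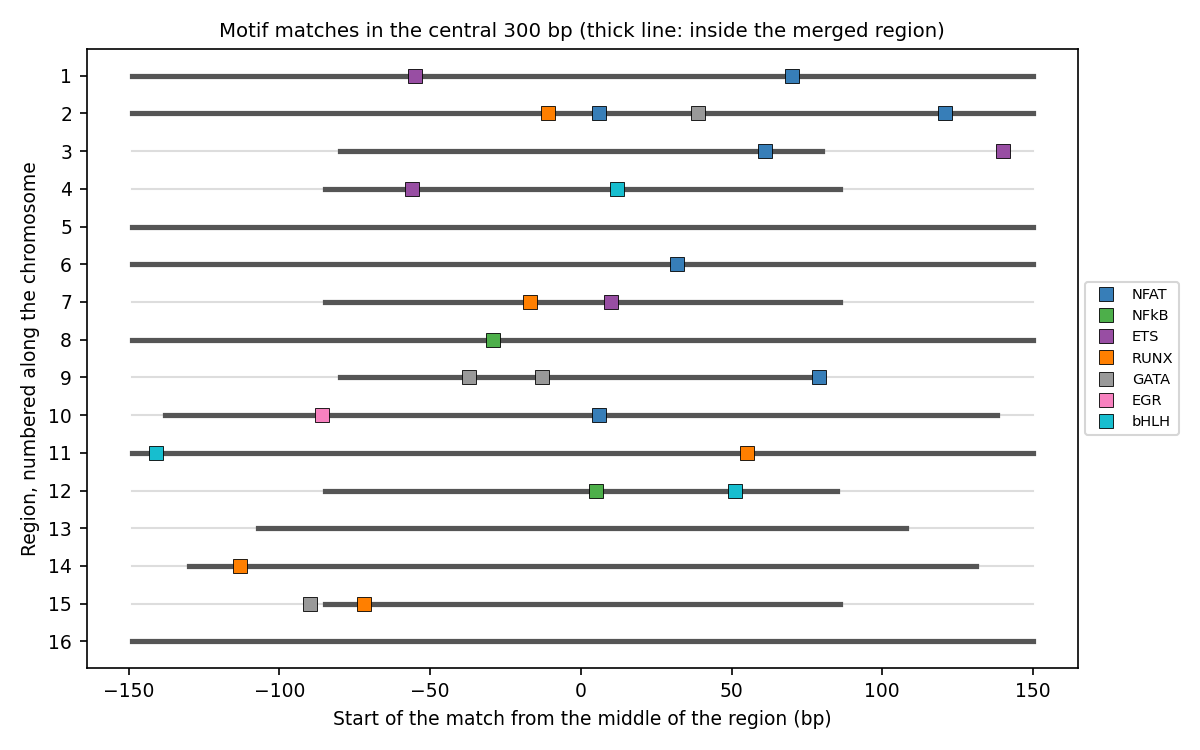
Start of each motif match in bp from the middle of the region (horizontal axis), within the central 300 bp, for the 16 regions (vertical axis). Dark lines are the part inside the merged region and colours are the motifs. Region 8 has its single match, NFkB, near the middle, region 10 has EGR and NFAT, and regions 5, 13 and 16 have none.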

How the data were processed

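Peak lists of 4 FAIRE-seq libraries were used. According to the paper's methods, the authors used CutAdapt on adapters, Bowtie2 for alignment to Hg19, Picard on duplicates, and MACS2 with its broad setting for peaks over the total input. The deposited lists give 4 values per peak, namely its score, its ratio to the input (fold enrichment), the −log10 p-value and the −log10 q-value. All peaks were kept, with highest q-values of 0.0946 to 0.0983. Peaks on the autosomes, X and Y sharing 1 bp or touching were joined. A region took its highest fold enrichment in each list. Genes were from GENCODE release 44 on GRCh37. Regions were assigned to the locus and to windows around start sites by overlap. The distance of a region to a start site and the part of a gene it lay in were taken at its mid-point. The distance to the nearest peak of a list was taken from the edge of the peak. With 1 library per state there was no test, and shares over all regions or protein-coding genes stand in for one. A ratio of fold enrichments past 1.5 in either direction was called. Named genes were the members, genes nearest to or holding a region, pathway genes with a region at their start, and the 5 most alike genes elsewhere. LTA, TNF, LTB and all gene lists and motifs were chosen with earlier results of these data known. Pathway genes without a region at their start are named as well where a count turns on them, chosen after their values were seen. A further marker gene is not reported here. The joining of peaks and the motif search were tested on simulated data, and the other steps were not. The software was pandas 2.3.3, numpy 2.4.6, scipy 1.17.1 and matplotlib 3.10.9 under Python 3.11.15.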

Additional observations from a re-analysis of the deposited data

How the results depend on the processing

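Of 71 alternative values computed, 59 stayed within 1.5 times the value given and 12 did not. The longest list weighed most. Without the SW rottlerin list the locus held 9 regions, of which 6 had no NS DMSO peak, and with lists of equal length 10 and 7. The number in all 4 lists was 1 of 13 regions within 25 kb of the starts and 6 of 20 within 100 kb, against 26.6% of all regions. Searching whole regions gave 1 of 16 with AP1 (all regions, 16.5%), 4 with NFkB (9.72%) and 5 with bHLH (25.4%). The central 500 bp gave 2 of 16 with AP1 (all regions, 16.7%) and 6 with NFkB (11.7%). A pair of alternatives was chosen after seeing the data. They were the counts per list at equal length, where the SW rottlerin list had 9 regions in place of 14, and the centred ratio of SW rottlerin to SW DMSO in region 8, 1.46 in place of 1.58. The number of regions in all 4 lists could not be computed with a list left out. No paired analysis was possible because there was 1 library per state. Depth is unknown, so absence of a peak at LTA, TNF or LTB is not absence of accessible DNA.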
